A study of Mus musculus with 2 samples.

Results

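The genes described here are 47 regulators of pre-mRNA splicing, measured in X63/0 (X63-Ag8.653), a plasmacytoma line of the mouse, that is, malignant plasma cells in culture. They are 4 CLK kinases, 12 SR and TRA2 proteins, 16 hnRNP proteins, 10 LUC7, RBM and RS-rich cofactors, 4 proteins of the U1, U2AF and SF3B complexes, and the mRNA export receptor NXF1. Members were chosen by name, as the rows whose gene symbol equals that of a member, and all 47 were found among the 43346 features of the deposited table. Of these, 43 had enough intron reads to be compared between the libraries.

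The study asked how transcripts differ when S-adenosylmethionine, the methyl donor of most methylation reactions, is lowered. Cycloleucine, an amino acid analogue that inhibits the enzyme making S-adenosylmethionine from methionine, was used for this. One group is X63/0 cells without treatment, the other X63/0 cells harvested 3 h after cycloleucine was added to 30 mM. Total RNA was depleted of ribosomal RNA and sequenced, with 1 library per group, so the differences below have no replicate check and no p-value. The sources used here do not state whether the untreated culture received the medium in which cycloleucine was dissolved.

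SR proteins bind exons and help the U1 and U2 particles find the splice sites, hnRNP proteins often oppose them, and CLK kinases phosphorylate the SR proteins. Many of these genes control their own output: exons that carry a premature stop send the mRNA to nonsense-mediated decay, and introns that stay in a polyadenylated transcript, called detained introns, hold it in the nucleus. Methylation touches this system at several points, among them the arginine methylation of hnRNP proteins and N6-methyladenosine in mRNA. An intron read can come from a detained intron, from pre-mRNA not yet spliced or from another RNA made within the intron, and the counts do not separate these.

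Gene reads numbered 27127865 without treatment and 31951946 with cycloleucine, of which the 47 regulators took 183869 (0.678%) and 208011 (0.651%). Their RPKM values ran from 2.72 to 151 in the untreated library and from 2.69 to 138 in the cycloleucine library. Plasma cell markers summed to 706 and 715 RPKM, and all 8 of those in the table reached 1 RPKM in both libraries. B cell markers summed to 58.4 and 60.4 RPKM, with 3 of 6 at 1 RPKM or more, myeloid markers to 1.48 and 1.43, T and natural killer cell markers to 0.419 and 0.554, and fibroblast markers to 0.295 and 0.297. Changes are given below as log2 of the cycloleucine over the untreated library, after scaling to the gene reads of each, with 95% intervals that cover counting error only. A change of at least 1.5-fold is used as a rule of size.

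**Figure D1:**
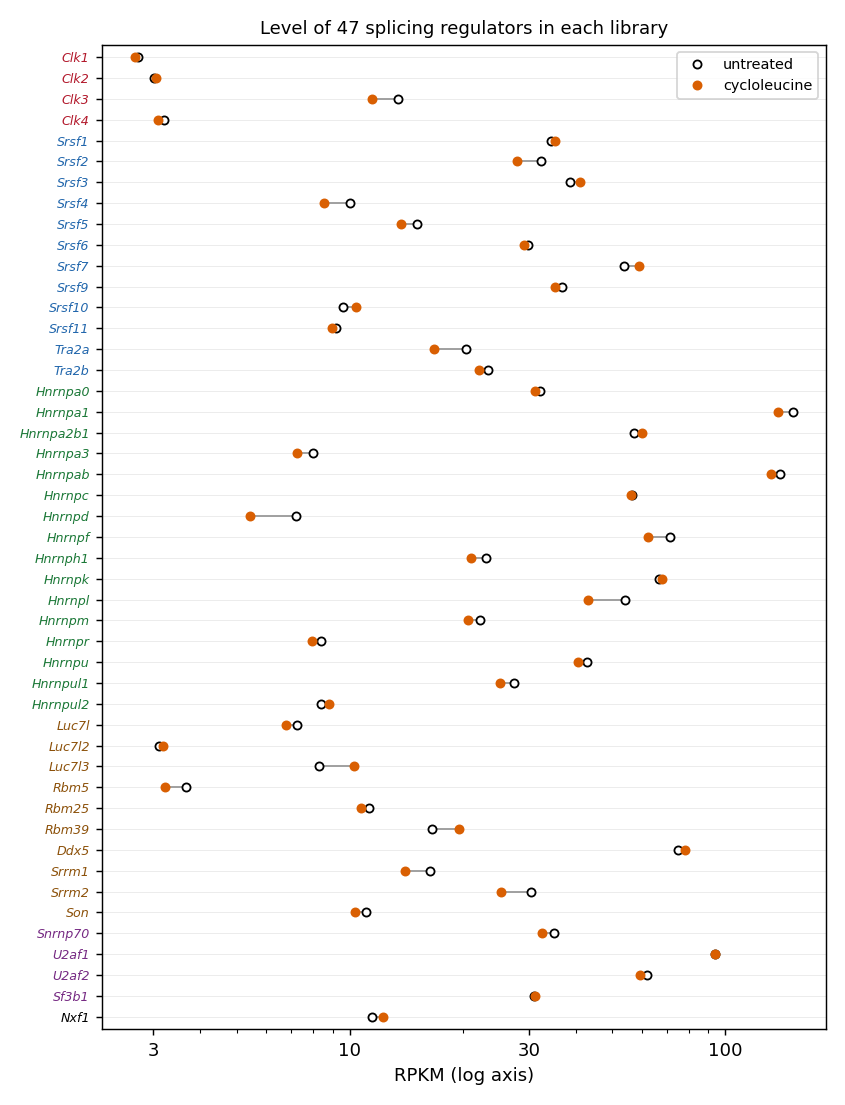
RPKM of the 47 splicing regulators in the untreated library (open circles) and the cycloleucine library (filled circles), on a log axis, with gene names coloured by family. The paired circles lie close together for most genes, and the widest gaps are those of Hnrnpd, Hnrnpl and Luc7l3.

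Exon reads of these genes differed by less than 1.5-fold between the libraries. They were at least 1.5-fold higher in 0 of the 47 genes and at least 1.5-fold lower in 0, against 1.69% and 1.21% of all 8943 genes compared. The median change was -0.07, with 32 genes (68.1%) below 0, beside a median of 0.0025 and 49.3% below 0 over all genes. The counting interval lay wholly below 0 in 23 of the 47 and wholly above 0 in 8, against 20.7% and 22.3% of all genes. The range ran from -0.41 for Hnrnpd to 0.31 for Luc7l3, inside the span of -0.46 to 0.53 that holds the middle 95% of all genes. That background includes genes with fewer reads than most members have. Among the 5609 genes with at least 1000 exon reads over both libraries, 0.446% were at least 1.5-fold higher and 0.232% lower. The hnRNP genes lay lowest, with 13 of 16 below 0 and a median of -0.09.

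Intron reads gave a similar picture. In 43 members the median change was -0.08, with 26 (60.5%) below 0, beside a median of 0.02 and 46.3% below 0 over 6803 genes. No member had intron reads at least 1.5-fold higher (0 of 43, against 3.69% of all genes), and 2 had them at least 1.5-fold lower (against 2.47%), Nxf1 and Srrm1. The ratio of intron to exon reads, in which library size cancels, had a median change of -0.03 beside 0.02 over all genes. It was at least 1.5-fold higher in 1 of 43 members, Hnrnpl, against 5.16% of all genes, and at least 1.5-fold lower in 1, Nxf1, against 3.51%. These counts are near or under the share in all genes. The interval of the ratio lay wholly above 0 in 9 of the 43 and wholly below 0 in 6, against 15.3% and 13.2% of all genes. Of the 43 ratios 20 were above 0 and 23 below, where all genes had 52.9% above and 47.1% below.

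**Figure D2:**
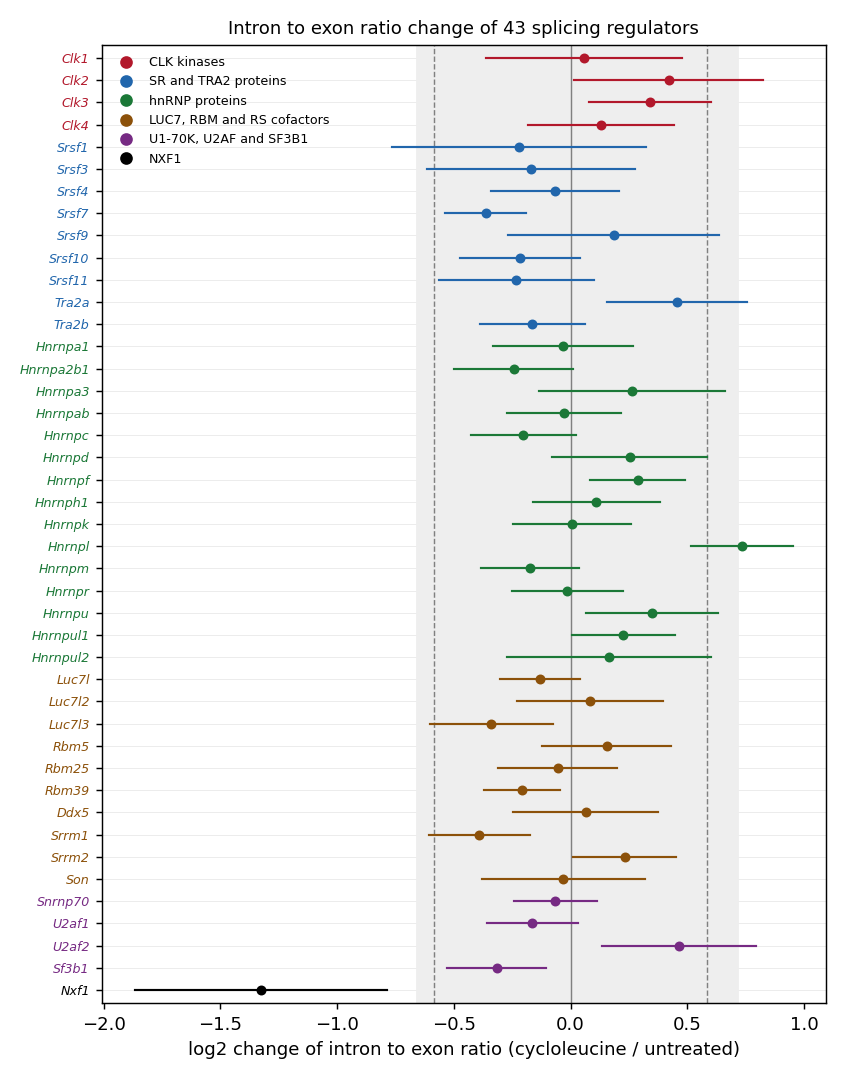
Log2 change of the intron to exon read ratio of 43 splicing regulators, cycloleucine over untreated, with 95% counting intervals (bars), coloured by family. The shaded band holds the middle 95% of all 6803 genes, dashed lines mark 1.5-fold, and Nxf1 at -1.33 and Hnrnpl at 0.73 are the points outside the dashed lines.

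The annotation decides what counts as an intron read. In GENCODE M21 on the mm10 assembly, 37 of the 43 compared members (86.0%) have a transcript annotated with a retained intron, against 68.3% of 6441 matched genes. A transcript annotated as a target of nonsense-mediated decay is listed for 34 (79.1%), against 35.0%. At least 1 coding intron that lies wholly within an exon of another transcript is found in 26 (60.5%), against 34.8%. A median of 18.23% of the members' intron bases lies within an exon of some M21 transcript, against 4.21% in all matched genes. In 20 of the 47 genes the exon length in the deposited table equals the union of all M21 exons, so reads in such introns were there counted as exon reads. Among the compared members this holds for 16 of 43 (37.2%), against 51.7% of all matched genes. The intron reads of these 16 therefore leave out part of the sequence in which detained introns lie.

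Positions of such introns are given for the CLK genes from the annotation alone, since reads were not counted per intron. CLK1 and CLK4 are close relatives, and the introns on both sides of their exon 4, which is skipped in transcripts for a truncated kinase, are known as detained introns. Introns 3 and 4 lie wholly within an annotated exon in all 4 genes. The start of each is printed on the transcript strand, with the last 10 exon bases in lower case and the first 40 intron bases in capitals. For Clk1 these are intron 4 (387 bases, window chr1:58420081-58420130, minus strand) and intron 3 (871 bases, chr1:58421043-58421092, minus strand). For Clk4 they are intron 4 (391 bases, chr11:51273159-51273208, plus strand) and intron 3 (1055 bases, chr11:51272013-51272062, plus strand). Intron 4 of Clk2 has 346 bases (chr3:89169693-89169742, plus strand) and that of Clk3 has 276 bases (chr9:57758587-57758636, minus strand).
Clk1 intron 4: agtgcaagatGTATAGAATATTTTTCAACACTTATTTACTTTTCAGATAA
Clk4 intron 4: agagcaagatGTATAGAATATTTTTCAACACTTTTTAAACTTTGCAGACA
Clk2 intron 4: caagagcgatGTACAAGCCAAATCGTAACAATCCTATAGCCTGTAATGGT
Clk3 intron 4: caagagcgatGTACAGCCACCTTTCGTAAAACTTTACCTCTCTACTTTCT
Clk1 intron 3: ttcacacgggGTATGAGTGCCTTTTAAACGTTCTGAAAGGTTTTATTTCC
Clk4 intron 3: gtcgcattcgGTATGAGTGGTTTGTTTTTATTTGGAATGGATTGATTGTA

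Over the 50 bases of the intron 4 window, Clk1 and Clk4 are identical at 39 positions, and the first 23 intron bases are the same in both. In the intron 3 window they match at 29 of 50 positions, with the first 9 intron bases the same. At the far end of these introns the match falls to 25 of 50 positions for intron 4 and 26 of 50 for intron 3. Across all 4 genes the start of intron 4 shares 12 of 50 positions.

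Clk1 had 601 exon reads without and 698 with cycloleucine, an exon change of -0.02 (interval -0.18 to 0.14), at 2.72 and 2.69 RPKM. Its intron reads, 96 and 116, gave a ratio change of 0.06 (-0.36 to 0.48). Junction reads, which span 2 joined exons and so mark spliced RNA, were 177 and 154, a change of -0.44 (-0.76 to -0.12). Clk1 thus had even exon reads and fewer junction reads in the cycloleucine library. Set against the other exon reads of the gene, junction reads differed by -0.56 (-0.92 to -0.20), the lowest of the 46 members with enough junction reads. No member reached 1.5-fold in this measure (0 of 46 higher and 0 lower, against 3.11% and 3.29% of all genes). Junction reads of Clk1 made up 29.5% of exon reads without and 22.1% with cycloleucine.

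Clk4, with 505 and 571 exon reads and 3.21 and 3.08 RPKM, had 164 and 156 junction reads. Against the other exon reads these differed by -0.35, with an interval from -0.73 to 0.02 that holds 0. Its intron reads were 214 and 265, 29.8% and 31.7% of its gene reads, and the ratio differed by 0.13 (-0.18 to 0.44). In Clk1, Clk2 and Clk4 all M21 exons were counted together, so reads in introns 3 and 4 are among their exon reads that cross no junction.

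Clk2 had more intron reads in the cycloleucine library, 160 against 100, while exon reads were 517 against 433. Its intron change of 0.44 (0.07 to 0.82) was the highest of the 43 members, with a ratio change of 0.42 (0.02 to 0.82). Clk3 had 910 and 915 exon reads, a change of -0.23 (-0.36 to -0.09), and 278 and 354 intron reads, with a ratio change of 0.34 (0.08 to 0.60). The table lists 1 transcript for Clk3, which overlaps the gene Edc3, and the sources used here do not state whether counting used strand. The ratio was thus above 0 in 4 of 4 CLK genes, against 52.9% of all genes, with a median of 0.24. The intervals of Clk1 and Clk4 hold 0, and each of the 4 values lay inside the middle 95% of all genes, -0.66 to 0.72.

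Per base and relative to the exon reads of the same gene, introns of Clk1, Clk2 and Clk4 held more reads than those of most genes. The density of intron reads over that of exon reads was 22.6% for Clk1, 17.9% for Clk2 and 17.3% for Clk4 in the untreated library, above 96.0%, 94.5% and 94.3% of the 6803 genes. That of Clk3 was lower, 6.02%, above 76.0% of genes. In the cycloleucine library the density was 23.5% for Clk1, 24.0% for Clk2, 18.9% for Clk4 and 7.62% for Clk3. Next in the untreated library came Luc7l at 16.8% and Srsf10 at 13.9%. Over the members as a whole this density was not high, with an untreated median of 3.35% against 3.17% in all matched genes.

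**Figure D3:**
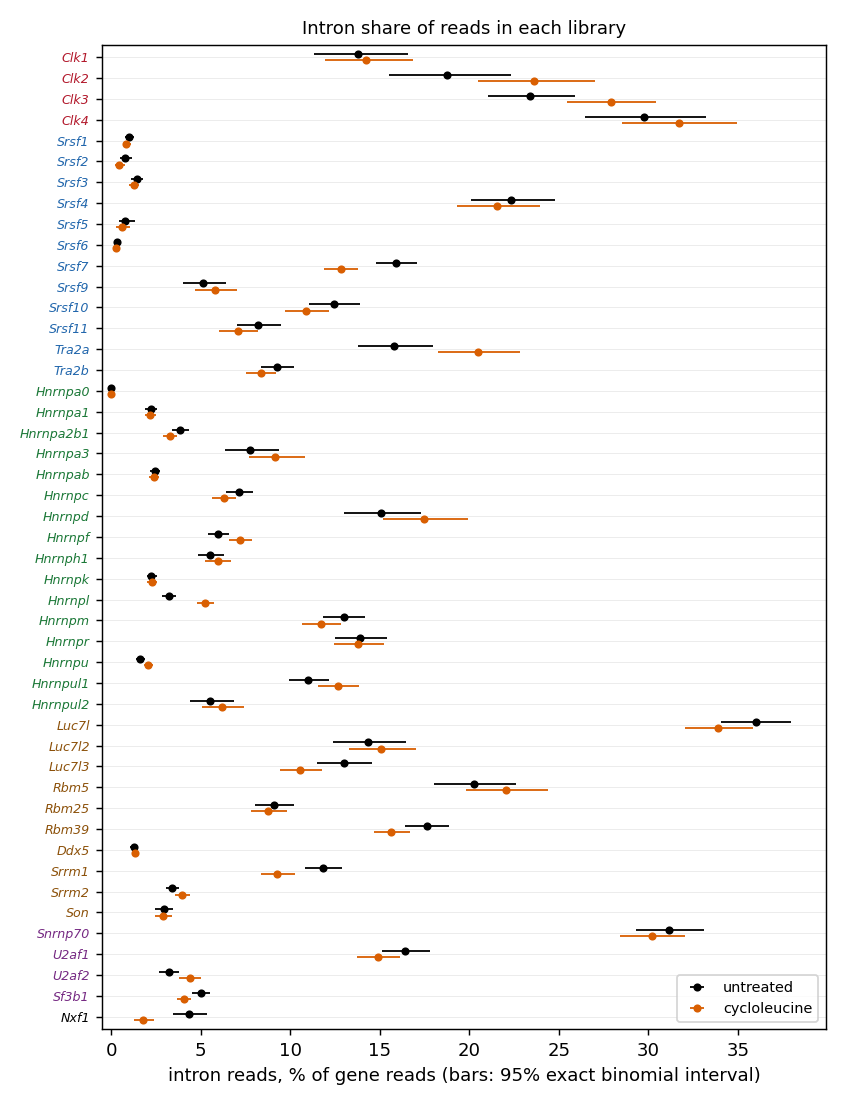
Intron reads as a percentage of gene reads for each of the 47 regulators in the untreated (black) and cycloleucine (orange) library, with 95% exact binomial intervals (bars). The shares run from 0 for Hnrnpa0 to over 30% in both libraries for Luc7l and Snrnp70, and the intervals of both libraries are apart for Srsf7, Hnrnpl and Nxf1 among others.

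Of the SR and TRA2 genes, 8 of 12 lay below 0 in exon reads, against 49.3% of all genes, with a median of -0.05. Among the 9 with enough intron reads, 7 had a ratio below 0, against 47.1% of all genes, with a median of -0.17. The counting interval of the ratio lay wholly below 0 in 1 of these 9 and wholly above 0 in 1. Over all genes the shares were 13.2% and 15.3%, so these counts are near them. Exons that bring an in-frame stop into the transcript are annotated in 7 of the 12, and in 15 of the 47 regulators in all, as parts of transcripts subject to nonsense-mediated decay. Such cassette exons are known for the autoregulation of SR genes. Only inner exons that overlap no exon of a protein-coding transcript were counted. They were not counted over all genes, so the 7 and the 15 cannot be read as an excess. Bases around the stop are printed for the 4 genes whose counts are given next, on the transcript strand with the stop codon in capitals. The exon of Srsf3 has 456 bases (window chr17:29039461-29039520, plus strand), that of Srsf7 has 460 (chr17:80205021-80205080, minus strand), that of Tra2a has 306 (chr6:49252932-49252991, minus strand) and that of Tra2b has 276 (chr16:22259148-22259207, minus strand).
Srsf3: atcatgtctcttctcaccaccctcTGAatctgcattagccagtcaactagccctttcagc
Srsf7: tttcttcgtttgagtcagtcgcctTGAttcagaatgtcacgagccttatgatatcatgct
Tra2a: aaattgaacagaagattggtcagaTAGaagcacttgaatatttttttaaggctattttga
Tra2b: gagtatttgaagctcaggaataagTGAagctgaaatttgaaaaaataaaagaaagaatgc

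Srsf7 encodes a shuttling SR protein that also takes part in mRNA export. It had 3315 exon reads without and 4294 with cycloleucine, a change of 0.14 (0.07 to 0.20), at 53.6 and 59.0 RPKM. Intron reads were even in number, 628 and 632, a change of -0.23 (-0.39 to -0.07) after scaling. The ratio of Srsf7 was therefore lower, by -0.36 (-0.54 to -0.19), and the intron share went from 15.9% to 12.8%. The table lists 1 transcript for Srsf7, so reads in the cassette exon above may be among these intron reads.

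Tra2a, a splicing activator that binds purine-rich exonic sequence, went the other way. It had 1012 and 982 exon reads, a change of -0.28 (-0.41 to -0.15), at 20.4 and 16.8 RPKM. Intron reads were 190 and 253, and the ratio differed by 0.46 (0.16 to 0.75). Its relative Tra2b, with 3412 and 3790 exon reads and 348 and 345 intron reads, had a ratio change of -0.16 (-0.39 to 0.06). Tra2a is also listed with 1 transcript.

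Srsf3, an SR protein of RNA export and polyadenylation, had 5337 and 6694 exon reads, a change of 0.09 (0.04 to 0.14). Its 77 and 86 intron reads gave a ratio change of -0.17 (-0.61 to 0.28). Srsf10, a splicing repressor when dephosphorylated, had 1826 and 2326 exon reads, a change of 0.11 (0.02 to 0.20), and 259 and 284 intron reads. Its ratio differed by -0.22 (-0.47 to 0.04).

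Lower exon reads were seen for Srsf4, at 969 and 975, a change of -0.23 (-0.36 to -0.10), or -0.07 with uniquely placed reads. Intron reads of Srsf4 were lower as well, 279 and 268, a change of -0.29 (-0.54 to -0.05), and its ratio was near even at -0.07. Srsf2, whose protein is an activator of exon inclusion, had 2598 and 2639 exon reads, a change of -0.21 (-0.29 to -0.13). Srsf5 had 1635 and 1742 exon reads, a change of -0.14 (-0.24 to -0.05).

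Srsf1, which encodes the SR protein also called ASF/SF2, had 5313 and 6420 exon reads, a change of 0.04 (-0.02 to 0.09), with 370 and 527 junction reads, a change of 0.27 (0.08 to 0.47). Its 53 and 55 intron reads gave a ratio change of -0.22 with a wide interval, -0.76 to 0.32. Srsf11 had 1782 and 2041 exon reads and 159 and 155 intron reads, with a ratio change of -0.23 (-0.56 to 0.10). The exon changes of Srsf6 and Srsf9 were -0.03 and -0.06, and that of Srsf11 was -0.04, with intervals that hold 0. Introns of Srsf2, Srsf5 and Srsf6 held at most 20 reads in either library, too few to compare.

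Among the hnRNP genes, Hnrnpl stood out in intron reads. HNRNPL binds CA-rich RNA and is known in lymphocytes for its part in CD45 splicing. Hnrnpl had 8731 exon reads without and 8211 with cycloleucine, a change of -0.32 (-0.37 to -0.28), at 54.1 and 43.2 RPKM. Its intron reads were 290 and 454, a change of 0.41 (0.19 to 0.63), so that exon and intron reads of Hnrnpl differed in opposite directions. The ratio change was 0.73 (0.52 to 0.95), the 148th highest of 6803 genes, and the intron share went from 3.21% to 5.24%.

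Junction reads of Hnrnpl, 2914 and 2717, differed by -0.34 (-0.41 to -0.26), about as its exon reads did. An annotated exon of 70 bases with an in-frame stop lies within this gene (window chr7:28817367-28817404, plus strand). It is shown since M21 places it in a transcript subject to decay, with the stop codon in capitals. All M21 exons of Hnrnpl were counted, so reads in this exon are exon reads and the 454 intron reads lie elsewhere.
Hnrnpl: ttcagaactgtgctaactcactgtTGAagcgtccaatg

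Hnrnpd, also called AUF1, binds AU-rich elements and promotes mRNA decay. It had 947 and 841 exon reads, at 7.18 and 5.41 RPKM. Its exon change of -0.41 (-0.54 to -0.27) was the lowest of the 47. Junction reads of Hnrnpd, 276 and 224, differed by -0.54 (-0.80 to -0.28), also the lowest, while its intron reads were 168 and 178 with a ratio change of 0.25 (-0.08 to 0.59). With uniquely placed reads the ratio change of Hnrnpd was -0.01, and its exon change -0.33.

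Hnrnpf, which binds G-rich runs, had 5871 and 6050 exon reads, a change of -0.19 (-0.24 to -0.14). Its 372 and 468 intron reads gave a ratio change of 0.29 (0.08 to 0.49). Taken over junction reads instead, the ratio change of Hnrnpf was 0.07, outside that interval. Hnrnpa3 had 1168 and 1250 exon reads and 98 and 126 intron reads, with a ratio change of 0.26 (-0.13 to 0.66). Hnrnpu, a chromatin-bound member of the family, had 10378 and 11601 exon reads and 172 and 245 intron reads, from which its ratio differed by 0.35 (0.06 to 0.63). That value rests on reads that map to more than 1 place: 2.16% of its exon reads and 0% of its intron reads were uniquely placed, and the exon change was -0.08 with all reads and -0.26 with these.

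Hnrnpa2b1, described as a reader of N6-methyladenosine, was level or slightly higher. It had 6318 and 7839 exon reads, a change of 0.08 (0.03 to 0.12), or 0.1237 with uniquely placed reads, and 253 and 265 intron reads. The ratio change of Hnrnpa2b1 was -0.24 (-0.50 to 0.01), the lowest of the hnRNP genes. Hnrnpm, a regulator of alternative exons, had 2826 and 3095 exon reads and 422 and 410 intron reads, an intron change of -0.28 (-0.48 to -0.08). Hnrnpul2 had 76 and 106 intron reads, an intron change of 0.24 (-0.19 to 0.69).

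The most abundant member in both libraries, Hnrnpa1, a repressor of exon inclusion and a target of arginine methylation, had 151 and 138 RPKM and an exon change of -0.13 (-0.18 to -0.09). Only 5.58% of its exon reads were uniquely placed, and over these the exon change of Hnrnpa1 was 0.05. Hnrnpab, at 139.9 and 132 RPKM, differed by -0.08 (-0.12 to -0.04) in exon reads and by -0.03 in ratio. Exon changes of Hnrnph1 and Hnrnpul1 were -0.13 and -0.12, both with intervals below 0. Those of Hnrnpc (-0.01), Hnrnpr (-0.08), Hnrnpk (0.03) and Hnrnpa0 (-0.05) had intervals that hold 0. Hnrnpa0 has a single exon and had 0 intron reads.

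**Figure D4:**
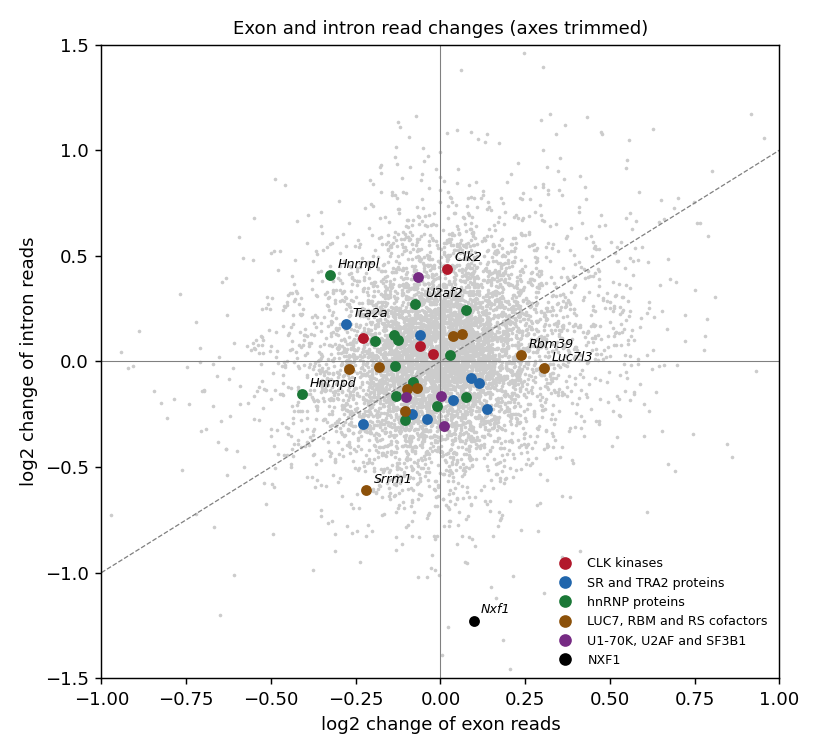
Log2 change of exon reads (horizontal) against that of intron reads (vertical), cycloleucine over untreated, for 43 regulators coloured by family and for all 6803 genes compared (grey; the axes leave out some grey points). On the dashed line both changes are equal; Nxf1 lies far below it, and Hnrnpl lies in the upper left, with fewer exon and more intron reads.

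In the cofactor group, Luc7l3 and Srrm1 differed most. LUC7L3 is a relative of the yeast U1 particle protein Luc7. Luc7l3 had 1636 exon reads without and 2384 with cycloleucine, at 8.29 and 10.2 RPKM. Its change of 0.31 (0.22 to 0.40) was the highest of the 47, and with uniquely placed reads it was 0.42. Junction reads of Luc7l3 were 296 and 555, a change of 0.67 (0.46 to 0.88), and it was the 1 member with junction reads at least 1.5-fold higher, against 2.87% of 6718 genes. No member had junction reads at least 1.5-fold lower (0 of 46, against 2.74%).

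Intron reads of Luc7l3 were 244 and 281, a change of -0.03 (-0.28 to 0.22), so its ratio was lower, by -0.34 (-0.60 to -0.08). Taken over junction reads instead, the ratio change of Luc7l3 was -0.70, past 1.5-fold. Of its exon reads, 18.1% crossed a junction without and 23.3% with cycloleucine. Against the other exon reads this is a change of 0.46 (0.23 to 0.68), the highest of the members. Clk1 and Luc7l3 thus lay at opposite ends in the share of exon reads that cross a junction. Both are genes in which annotated retained introns were counted as exons.

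**Figure D5:**
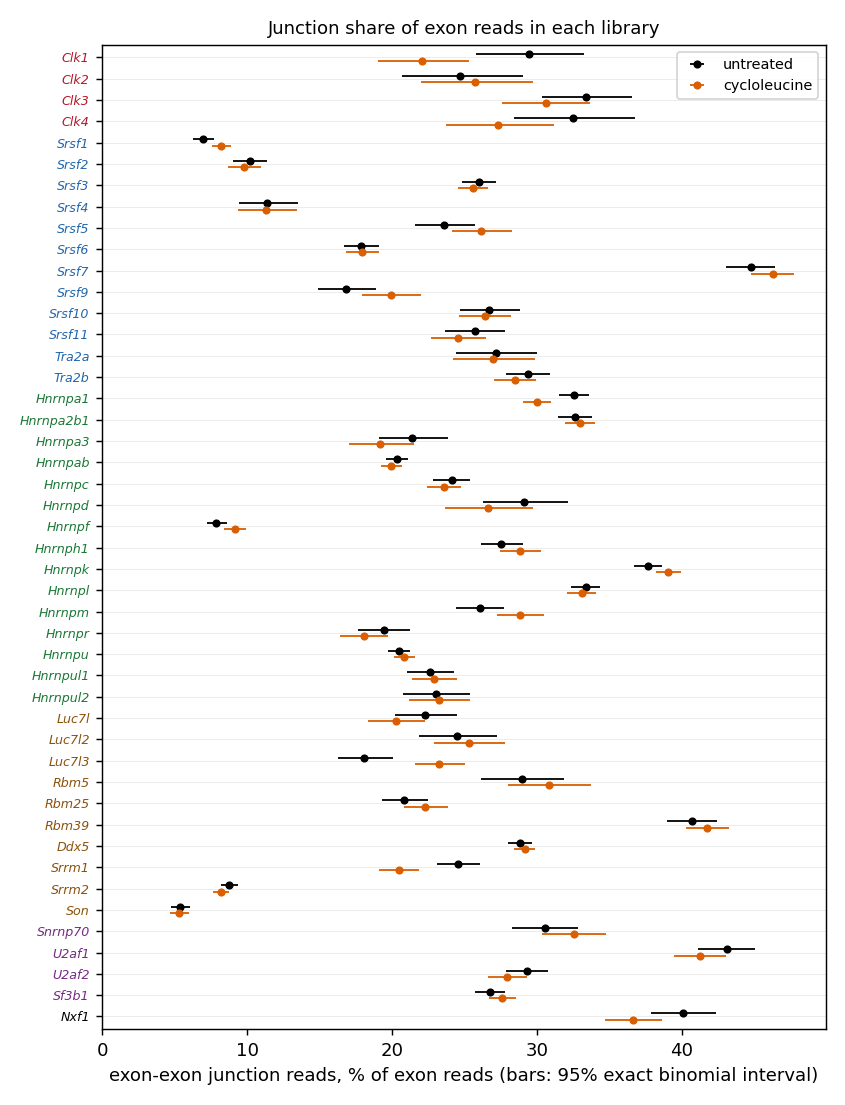
Exon-exon junction reads as a percentage of exon reads in 46 regulators, untreated (black) and cycloleucine (orange), with 95% exact binomial intervals (bars). Clk1 goes from 29.5% to 22.1% and Luc7l3 from 18.1% to 23.3%, and most other pairs overlap.

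Srrm1, the RS-rich coactivator SRm160, was lower in exon, junction and intron reads after scaling. It had 3236 and 3276 exon reads, a change of -0.22 (-0.29 to -0.15), at 16.3 and 14.0 RPKM. Its junction reads were 795 and 670, a change of -0.48 (-0.63 to -0.33), and its intron reads 434 and 335, a change of -0.61 (-0.82 to -0.40). Intron reads of Srrm1 were thus lower than exon reads, with a ratio change of -0.39 (-0.61 to -0.17), but not lower than junction reads to the same degree: over junction reads the ratio differed by -0.13. Its partner Srrm2, the scaffold protein SRm300 of nuclear speckles, had 9069 and 8857 exon reads, a change of -0.27 (-0.31 to -0.23), and a ratio change of 0.23 (0.01 to 0.45). Son, the other large speckle protein, differed by -0.10 (-0.16 to -0.04) in exon reads.

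Rbm39, a U2AF-like factor whose degradation aryl sulfonamides induce, had 3118 and 4331 exon reads, a change of 0.24 (0.17 to 0.30), at 16.6 and 19.5 RPKM. Its intron reads were 667 and 803, and the ratio differed by -0.21 (-0.37 to -0.04). In Rbm39 as in Luc7l3 and Srsf7, exon reads were higher in the cycloleucine library and the ratio was lower. Since exon reads are the denominator of the ratio, these are not separate results. The intron changes were 0.03 for Rbm39, -0.03 for Luc7l3 and -0.23 for Srsf7. Luc7l had the largest intron share of the members, 36.0% and 33.9%, from 831 intron reads in each library, of which 36.4% were uniquely placed. Its ratio differed by -0.13 (-0.30 to 0.04), and by 0.05 with uniquely placed reads. Exon changes were 0.04 for Luc7l2, -0.07 for Rbm25 and -0.18 (-0.31 to -0.05) for Rbm5, a regulator of splicing in apoptosis genes. Ddx5, an RNA helicase with 11714 and 14430 exon reads, differed by 0.06 (0.03 to 0.10). With uniquely placed reads the exon changes were 0.18 for Luc7l2 and 0.16 for Ddx5.

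Genes of the splice site particles had exon changes between -0.10 and 0.01. Counting intervals lay below 0 in 2 of 4, against 20.7% of all genes, and both ended near 0. U2af2, the large U2AF subunit that binds the polypyrimidine tract, had 3799 and 4277 exon reads, a change of -0.07 (-0.13 to -0.0017). With uniquely placed reads the exon change of U2af2 was -0.0004. It had 126 and 196 intron reads, a change of 0.40 (0.07 to 0.74). Its ratio change was 0.46 (0.14 to 0.79). U2af1, the small subunit that reads the AG of the splice site, had 94.0 and 94.1 RPKM, an exon change of 0.00 (-0.08 to 0.08), or 0.18 with uniquely placed reads, and a ratio change of -0.16 (-0.36 to 0.03). The ratios of these partners had opposite signs, and that of U2af1 had an interval that holds 0.

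Sf3b1, the branch site protein of the U2 particle, had 7198 and 8542 exon reads, a change of 0.01 (-0.03 to 0.06). Its 378 and 360 intron reads differed by -0.31 (-0.52 to -0.09), and the ratio by -0.32 (-0.53 to -0.10). Snrnp70, which encodes the U1-70K protein of the U1 particle, had 1591 and 1745 exon reads, a change of -0.10 (-0.20 to -0.0039). Its intron share was large and near even, 31.2% and 30.2%, from 721 and 756 intron reads.

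Nxf1 showed the largest difference of all compared members in intron reads and in the ratio. NXF1 carries mRNA through the nuclear pore, and its own intron 10 holds an RNA element through which a transcript that keeps the intron is exported. Nxf1 had 84 intron reads without and 42 with cycloleucine, a change of -1.23 (-1.81 to -0.69). Exon reads were 1858 and 2343, a change of 0.10 (0.01 to 0.19), at 11.5 and 12.3 RPKM. The ratio of Nxf1 differed by -1.33 (-1.86 to -0.79), which is the 7th lowest of 6803 genes, and its intron share went from 4.33% to 1.76%.

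With uniquely placed reads the ratio change of Nxf1 was -1.33 as well. Junction reads, 745 and 859, differed by -0.03 (-0.17 to 0.11). The number of intron bases in the deposited table, 9423, equals that left in M21 after the exons of all its transcripts are removed. Intron 10 (1765 bases, chr19:8765032-8766796, plus strand) lies within an exon of the transcript Nxf1-209, so its reads would be exon reads, and the 84 and 42 reads lie in other introns. The ends of intron 10 are shown since it is the best known retained intron among these genes, with intron bases in capitals (windows chr19:8765022-8765071 and chr19:8766757-8766806).
Nxf1 intron 10 start: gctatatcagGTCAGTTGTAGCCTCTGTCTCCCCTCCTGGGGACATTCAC
Nxf1 intron 10 end: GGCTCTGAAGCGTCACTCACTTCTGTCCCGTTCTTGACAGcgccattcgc

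The deposited exons of Nxf1 run on beyond its M21 end, from 8770922 to 8772475 on chromosome 19, over the neighbour Tmem223. Reads of that gene may thus be among the exon reads of Nxf1, and its part in the change was not tested.

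Of the 9 members with at most 50% uniquely placed exon reads, Srsf2 (9.57%), Srsf3 (46.9%), Srsf4 (29.7%), Hnrnpa3 (46.5%), Hnrnpf (18.3%), Hnrnpk (45.0%) and U2af1 (18.9%) are uncertain in their levels, as are Hnrnpa1 and Hnrnpu. Leaving all 9 aside, the median exon change of the other 38 was -0.06, with 26 below 0.

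Among other genes of the pathway few passed 1.5-fold. Over all genes, exon reads were at least 1.5-fold higher in 1.69% and lower in 1.21%, and the ratio in 5.16% and 3.51%. Of 44 core spliceosome genes, 0 had exon reads at least 1.5-fold higher or lower. Their median exon change was 0.01 with 47.7% below 0, unlike the 47 members with -0.07 and 68.1%. Other lists leaned below 0 as well: further splicing regulators had -0.03 with 56.5%, and mRNA export and nuclear exosome genes -0.01 with 63.2%. Decay and exon junction genes (0.01, 6 of 15 below 0) and housekeeping genes (22.2% below 0) did not. A lean below 0 was thus not particular to the 47. Among the 38 core spliceosome genes with enough intron reads the ratio was at least 1.5-fold higher in 1, Xab2 (0.89), and lower in 1, the helicase gene Dhx38 (-0.95). Of 46 further splicing regulators compared, 1 had exon reads at least 1.5-fold higher, Rbm4 (0.90, named after its value was seen), and 0 lower. The ratio in 40 of these was higher in 2, Rbmx (0.998) and Pnn (0.65), and lower in 1, Sltm (-0.59).

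In the decay and exon junction list the ratio was at least 1.5-fold higher in 1 of 11 genes and lower in 0, against 5.16% and 3.51% of all genes. The gene was Upf3b (0.76), which had 391 and 337 exon reads. In the mRNA export and nuclear exosome list the ratio was higher in 1 of 14, Thoc3 (0.64), a subunit of the THO complex that loads export factors, and lower in 0. Housekeeping genes gave 1 higher, Actb (0.74), and 1 lower, Sdha (-0.59), of 9. Their median exon change was 0.09, beside -0.07 for the 47 regulators.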

How the data were processed

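The authors deposited read counts per gene, both total and uniquely placed, for whole genes, exons, introns and junctions between exons, and RPKM values, per the file headers. Per the submitters' processing notes, mm10 was the genome build. The sources used here do not state the aligner, counting tool, annotation release or use of strand. Exon and intron reads summed to gene reads in 43346 of 43346 features.

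The 47 members and the gene lists were chosen with earlier results of these data known. Each group had 1 library, although the design text speaks of an experiment in triplicate, so no test was made. Changes were computed in Python 3.11.15 with SciPy 1.17.1 as log2 ratios with 0.5 added to each count, scaled to gene reads. Annotated genes needed 200 exon reads over both libraries, and 100 intron or 100 junction reads for those measures. Intervals are 95% exact Clopper-Pearson intervals, and for ratios a normal approximation from 4 counts. They cover counting error only, and without molecular identifiers PCR copies are not independent molecules. The script was tested on simulated data. Junction reads over other exon reads are a measure chosen after seeing the data.

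Members named in full were the 8 highest and 8 lowest by ratio, the 5 highest and 5 lowest by exon and by intron change, the 5 highest by intron density and the CLK genes. Other members are given in part. Of each other list, up to 3 genes with the largest ratio change could be named. Sequences and transcripts came from the mm10 genome with GENCODE M21, and protein sequences were not analysed here.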

Additional observations from a re-analysis of the deposited data

How the results depend on the processing

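No paired analysis was possible because only 1 library stood in each group. Shares of all genes under the same setting stand in parentheses. At the smallest rule of size tried, 2 members were lower in exon reads (6.45%), 3 were higher in intron reads (14.7%), and the ratio was higher in 6 (17.3%) and lower in 4 (13.6%). Of the 5609 genes with at least 1000 exon reads, 2.94% were lower in exon reads by this rule. At 2-fold, 1 was lower in intron reads (0.265%) and the ratio was higher in 0 (0.588%). With doubled read minimums, which Nxf1 does not reach, 1 was lower in intron reads (1.63%) and 0 in ratio (2.4%). With no minimum, 4 were lower in intron reads (10.1%) and 2 in ratio (14.7%). Scaled to intron reads, 1 was lower in intron reads (2.09%). With junction reads in place of exon reads 2 were lower in ratio (5.14%), Nxf1 and Luc7l3. The cause was not tested. Median exon changes of the members stayed below 0 under the settings run, from -0.02 with uniquely placed reads, where all genes had 0.04, to -0.10 scaled to exon reads. Of 966 single member values recomputed, 950 stayed within their counting interval and 27 changed sign, 13 of these with uniquely placed reads. Most of the 966 had little room to differ, since the read minimums only set which genes were compared. With uniquely placed reads 13 left their interval and 118 stayed. With junction reads in place of exon reads 3 left it and 40 stayed. No value left its interval under the other settings. The 27 include the exon change of Hnrnpa1 and the ratios of Hnrnpd and Luc7l, and none was of 1.5-fold or more at the outset. With 1 library per group, differences between cultures cannot be told apart from the treatment.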
